A study of Mus musculus with 2 samples.

Results

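Cftr, Kcnn4, Kcnq1, Slc12a8, Gucy2c and Cracr2a are 6 of the 140 genes of an imaging panel that was read in sections of mouse intestine, and they were taken as a set because of what is known of them: ion transport of secretory epithelium, the guanylin receptor and a regulator of calcium entry. The choice was made with earlier results of these data known. All 6 were found by symbol. The panel was imaged on the MERSCOPE platform, which reads barcoded probes in place and assigns each transcript to a segmented cell. Duodenum and colon came from 1 female and 1 male C57Bl6 mouse, given as 6 to 10 weeks old in the sample labels, with no treatment or genetic change named. Each animal gave 2 regions, numbered 0 and 1. Which of an animal's regions is duodenum and which is colon is not given by the labels, so the regions are called by number and no region of one animal was paired with one of the other.

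Intestinal crypts secrete fluid when chloride leaves the epithelial cell through the apical channel CFTR. Potassium channels of the basolateral membrane, among them KCNQ1, which is opened through cyclic AMP, and KCNN4, which is opened by calcium, keep the cell negative inside so that chloride continues to leave. GUCY2C is the apical guanylate cyclase that binds guanylin, uroguanylin and the heat-stable toxin of Escherichia coli, and the cyclic GMP it makes leads to opening of CFTR. Absorptive cells of the surface carry instead the chloride and bicarbonate exchanger SLC26A3 and, in the mouse colon, the water channel AQP8. SLC12A8 belongs to the family of cation and chloride cotransporters by sequence and has been described as a carrier of nicotinamide mononucleotide in the mouse small intestine. CRACR2A binds calcium and, in T cells, takes part in store-operated calcium entry through ORAI1 and STIM1.

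The counts came almost wholly from 1 of the 4 regions. Female region 1 held 13707 cells with 45942 panel counts, female region 0 held 6343 cells with 4288, male region 1 held 4068 cells with 582, and male region 0 held 7775 cells with 3048. Cells with at least 10 panel counts numbered 1256, 77, 4 and 55 in the same order. Blank barcodes, which match no probe and measure false readings, made up 1.19% to 3.36% of all counts. No cell identifier occurred in more than 1 region. Of 7 markers of crypt and stem cells that were looked for, 0 were on the panel, so the crypt position of these genes could not be checked in the data. Of 59 markers of intestinal cell classes 18 were on the panel, among them Aqp8 and Slc26a3 for absorptive cells and Ezr for any epithelium, but none for Paneth, enteroendocrine, tuft, immune or endothelial cells. Of 64 other genes of chloride, potassium, water, cyclic nucleotide and calcium handling, 4 were on the panel: Slc26a3, Aqp8 and the stretch-gated channel genes Piezo1 and Piezo2. The partners of CFTR, KCNQ1 and GUCY2C in secretion, such as Slc12a2, Kcne3 and Guca2a, were not among its genes.

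Cftr, Kcnn4 and Slc12a8 are given with the sequence at their starts, because they were the 3 members with the lowest ratios in cells rich in absorptive genes. The sequences are RefSeq's, of build GRCm38.p6, and run 5′ to 3′ from 250 bases before to 50 bases after the annotated start. Capitals mark matches, on either strand, to 4 motifs that were searched: the cyclic AMP response element as TGACNTCA, the CCAAT box as CCAAT, a core of the intestinal factor CDX2 as TTTATG and a partial HNF1 site as GTTAAT.
Cftr, chr6:18170437-18170736, plus strand: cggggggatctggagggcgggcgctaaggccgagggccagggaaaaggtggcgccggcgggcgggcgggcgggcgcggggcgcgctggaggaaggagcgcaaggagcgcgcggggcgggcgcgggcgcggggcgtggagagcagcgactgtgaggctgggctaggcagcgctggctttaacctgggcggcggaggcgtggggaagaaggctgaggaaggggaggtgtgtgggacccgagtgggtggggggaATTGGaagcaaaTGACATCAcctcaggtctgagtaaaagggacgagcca
Kcnn4, chr7:24370013-24370312, plus strand: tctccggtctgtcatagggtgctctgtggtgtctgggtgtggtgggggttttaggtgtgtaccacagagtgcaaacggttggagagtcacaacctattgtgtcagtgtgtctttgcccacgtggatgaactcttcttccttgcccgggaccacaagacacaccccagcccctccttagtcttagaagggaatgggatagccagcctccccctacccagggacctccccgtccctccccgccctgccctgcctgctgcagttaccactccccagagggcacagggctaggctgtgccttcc
Slc12a8, first of its annotated starts, chr16:33517078-33517377, plus strand: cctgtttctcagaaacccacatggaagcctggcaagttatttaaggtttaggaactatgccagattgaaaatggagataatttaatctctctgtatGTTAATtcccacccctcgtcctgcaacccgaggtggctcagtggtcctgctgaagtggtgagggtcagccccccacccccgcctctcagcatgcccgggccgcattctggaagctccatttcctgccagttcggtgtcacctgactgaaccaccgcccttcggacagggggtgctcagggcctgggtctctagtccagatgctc
The Cftr window was rich in G and C (71.3%) and held 1 match to the cyclic AMP response element, 13 bases after the start, and 1 to the CCAAT box, read on the minus strand. The Kcnn4 window (59.7% G and C) held none of the 4 motifs, and the Slc12a8 window (55.3%) held the partial HNF1 site 154 bases before its start. Another Slc12a8 start had a CCAAT box and a CDX core. None of the 4 matched the Cracr2a window. Of 32851 mouse promoter windows of this length, 8.83% held the response element, 37.4% the CCAAT box, 11.9% the CDX core and 7.10% the partial HNF1 site. Matches of this kind are letters in a window and were not tested as sites. Kcnq1 and Gucy2c are named only.

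In female region 1 all 6 genes lay above every blank barcode. The channel gene Cftr had 147 counts there, against 11 in female region 0, 2 in male region 1 and 5 in male region 0. Kcnq1, the potassium channel gene, had 201, 17, 1 and 20 counts in the same order of regions. Kcnn4, the calcium-activated potassium channel gene, had 397, 17, 0 and 4. Each of the 3 channel genes thus had most of its counts in 1 region of 1 animal, as did the panel as a whole. Slc12a8 had 414, 14, 1 and 3 counts. Gucy2c, the guanylin receptor gene, had 587, 18, 0 and 2. Cracr2a had 544, 32, 2 and 17. Of the 2456 counts of the 6 genes, 93.2% came from female region 1, and so did 45942 of the 53860 counts of the whole panel.

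The highest blank had 46 counts in female region 1, 33 in female region 0, 2 in male region 1 and 9 in male region 0. The number of the 6 genes above it was 6, 0, 0 and 2, while 66.4%, 16.4%, 37.9% and 32.9% of all 140 genes were above it in the same regions. The 2 in male region 0 were Kcnq1 and Cracr2a. The 20 Kcnq1 counts there lay in 11 cells, and 1 cell with 17 panel counts held 7 of them, which leaves 13 without it. The 17 Cracr2a counts lay in 17 cells. In female region 0, Cracr2a had 32 counts against a highest blank of 33. In that region and in male region 1 the levels of the 6 genes could not be told from false readings by this measure.

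**Figure D1:**
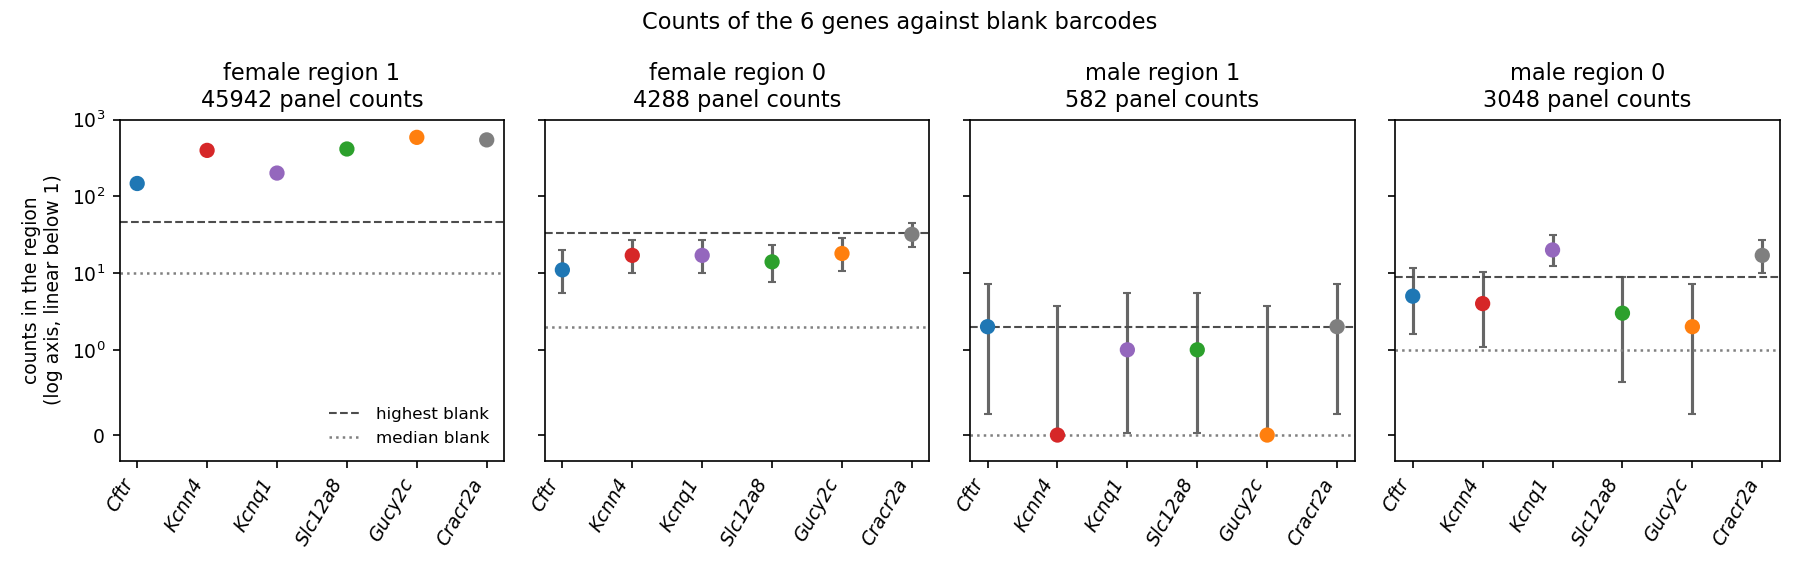
Counts of each gene in each region (points, log axis that is linear below 1) with exact 95% Poisson intervals, against the highest (dashed) and the median (dotted) of 40 blank barcodes of the same region. In female region 1, where intervals are smaller than the points, all 6 genes lie above the highest blank, and in male region 0 only Kcnq1 and Cracr2a do.

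Within female region 1 the order of the genes was Gucy2c, Cracr2a, Slc12a8, Kcnn4, Kcnq1 and Cftr. Per 10000 panel counts Gucy2c stood at 128 (118 to 139) and Cracr2a at 118 (109 to 129). Slc12a8 stood at 90.1 (81.6 to 99.2) and Kcnn4 at 86.4 (78.1 to 95.3). Kcnq1 stood at 43.8 (37.9 to 50.2) and Cftr at 31.997 (27.03 to 37.6). Brackets give exact 95% Poisson intervals, which reflect the counting of transcripts and no spread between sections, and they overlap between Gucy2c and Cracr2a and between Slc12a8 and Kcnn4. Probes differ in number and brightness between genes, so the order is one of counts and not of transcripts. Gucy2c ranked 17 and Cftr 48 among the 140 genes by counts. A count of Gucy2c was found in 515 cells, of Cracr2a in 437, of Kcnn4 in 347, of Slc12a8 in 344, of Kcnq1 in 185 and of Cftr in 141, and no cell held more than 6 counts of any of them.

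Between the female regions, Gucy2c, Slc12a8 and Kcnn4 took a larger part of the panel counts in region 1 than in region 0, while the ratios of Kcnq1 and Cftr were close to 1 with wide intervals. Per 10000 panel counts, region 1 over region 0, the ratio was 3.04 for Gucy2c (128 against 42.0; interval of the ratio 1.91 to 5.17), 2.76 for Slc12a8 (90.1 against 32.6; 1.63 to 5.09) and 2.18 for Kcnn4 (86.4 against 39.6; 1.34 to 3.78). It was 1.59 for Cracr2a (118 against 74.6; 1.11 to 2.34), 1.25 for Cftr (0.677 to 2.55) and 1.10 for Kcnq1 (0.672 to 1.93). So 3 of the 6 genes were at least 2-fold higher and 0 at least 2-fold lower, against 40.6% and 22.8% of the 101 genes with at least 50 counts over both regions. The median ratio was 1.88 over the 6 genes and 1.25 over those 101. Per cell all 6 were higher in region 1, by 5.47-fold for Kcnq1 to 15.1-fold for Gucy2c. On that scale 79 of the 101 genes were at least 2-fold higher and 7 lower, with a median ratio of 6.18. The sections differed widely in make-up. Aqp8 had 3811 counts in region 1 against 20 in region 0, Slc26a3 3272 against 10, Ezr 3589 against 31 and Fn1 3813 against 23, while the mucin gene Muc6 had 11 against 610 and the neuronal gene Snap25 79 against 483. The part of this make-up in the ratios of the 6 genes was not tested. The values of region 0 lay under its highest blank of 77.0 per 10000. Each value is of 1 section, so there was no test. In counts summed over a section, fewer cells of a type and less RNA per cell cannot be told apart.

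Between the animals, the female over the male, Gucy2c differed most and Kcnq1 least. The ratio was 21.9 for Gucy2c (120 against 5.51 per 10000; 6.03 to 181, from 2 male counts), 7.73 for Slc12a8 (85.2 against 11.02; 3.00 to 28.5), 7.48 for Kcnn4 (82.4 against 11.02; 2.90 to 27.6) and 2.19 for Cracr2a (115 against 52.3; 1.39 to 3.67). Cftr came to 1.63 (31.5 against 19.3; 0.773 to 4.12) and Kcnq1 to 0.750 (43.4 against 57.9; 0.479 to 1.24). Thus 4 of the 6 were at least 2-fold higher and 0 lower, against 34% and 28.3% of 106 genes. Per cell all 6 were at least 2-fold higher in the female, by 6.13-fold for Kcnq1 (3.91 to 10.1), 13.3-fold for Cftr and 17.9-fold for Cracr2a to 179-fold for Gucy2c, so that the direction for Kcnq1 rests on the scale. On that scale 89 of the 106 genes were at least 2-fold higher and 4 lower, with a median ratio of 9.92. Without the 1 male cell that held 7 Kcnq1 counts, its ratio per 10000 was 1.12 (0.653 to 2.08). Over the 2 animals the mean level per 10000 was 63.0 ± 81.3 for Gucy2c, 83.5 ± 44.1 for Cracr2a and 50.6 ± 10.2 for Kcnq1 (SD, n = 2 animals). With female region 1 left out the ratios came to 7.62 for Gucy2c (1.82 to 67.7), 3.60 for Kcnn4 (1.17 to 14.7) and 2.96 for Slc12a8 (0.931 to 12.4). They were 1.43 for Cracr2a, 1.33 for Cftr and 0.685 for Kcnq1, and these intervals and that of Slc12a8 include 1. All 6 genes lay under the highest blank of female region 0. Blanks made up 3.36% of its counts, against 1.39% and 1.19% in the male regions. These ratios could thus not be told from ratios of false readings. With 1 animal per sex these values describe 2 animals, and no test was possible.

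The cells of female region 1 were then grouped by the summed counts of Aqp8 and Slc26a3, the water channel and chloride exchanger genes of absorptive cells: 11922 cells had 0, 1135 had 1 to 2 and 650 had 3 or more. The median of the other panel counts per cell was 0, 4 and 12 in these groups, so levels are given per 10000 panel counts without Aqp8 and Slc26a3. The male regions and female region 0 together held 1 cell with 3 or more. The male had none, so the comparison could not be tested over animals.

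Cftr, Kcnn4 and Slc12a8 were almost without counts in the cells rich in Aqp8 and Slc26a3, whereas the Gucy2c level was close to that of cells with 0. Cftr had 119 counts in cells with 0, 26 in cells with 1 to 2 and 2 in cells with 3 or more, which is 50.8, 46.6 and 2.03 per 10000. Kcnn4 had 346, 45 and 6 counts, which is 148, 80.6 and 6.10 per 10000. Slc12a8 had 359, 45 and 10 counts, at 153, 80.6 and 10.2 per 10000. Of these 3, Kcnn4 and Slc12a8 were already lower in the middle group, and the Cftr intervals of the lower groups overlap (42.0 to 60.7 with 0 and 30.4 to 68.3 with 1 to 2). Kcnq1 stood at 63.5, 66.3 and 15.3 per 10000 on 149, 37 and 15 counts, and Cracr2a at 177, 145 and 47.8 on 416, 81 and 47 counts. Gucy2c had 353, 92 and 142 counts and stood at 151, 165 and 144 per 10000, with intervals that overlap across all groups (135 to 167, 133 to 202 and 122 to 170).

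As ratios of cells with 3 or more over cells with 0, Cftr came to 0.0401 (0.00480 to 0.148), Kcnn4 to 0.0414 (0.0151 to 0.0909) and Slc12a8 to 0.0664 (0.0316 to 0.124). Kcnq1 came to 0.240 (0.131 to 0.409), Cracr2a to 0.269 (0.195 to 0.365) and Gucy2c to 0.959 (0.784 to 1.17). With cells that were also rich in Des or stromal genes left out, Gucy2c came to 0.704 (0.573 to 0.862), an interval below 1. By this 5 of the 6 genes were at least 2-fold lower and 0 at least 2-fold higher, where 50.6% of the 85 genes compared were lower and 16.5% higher. The median was 0.153 over the 6 genes and 0.478 over the 85, so a ratio near 0.5 was the rule on this scale. A pair of epithelial genes took 36.4% of the panel counts of cells with 3 or more and 6.70% of those with 0. Ezr, which links membrane to actin, stood at 2322 per 10000 in cells with 3 or more against 325 in cells with 0. Shroom3, which acts in apical constriction, stood at 1317 against 345. The cells with 0 were a mixture by their markers, with Fn1 at 1368 and Des at 599 per 10000, so they do not stand for other epithelium. Per cell, where depth is not divided out, the ratio of Cftr was 0.308 (0.0369 to 1.14), that of Kcnn4 0.318 (0.116 to 0.699) and that of Slc12a8 0.511 (0.243 to 0.951). Gucy2c was 7.38-fold higher per cell, and Kcnq1 and Cracr2a turned to 1.85 and 2.07. A further setting, chosen after seeing the data, kept only cells with an Ezr count and left Ezr out of the panel counts. Per 10000, Gucy2c then came to 0.793 (0.589 to 1.07), Cftr to 0.0225, Kcnn4 to 0.0388, Slc12a8 to 0.0414, Kcnq1 to 0.209 and Cracr2a to 0.217.

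**Figure D2:**
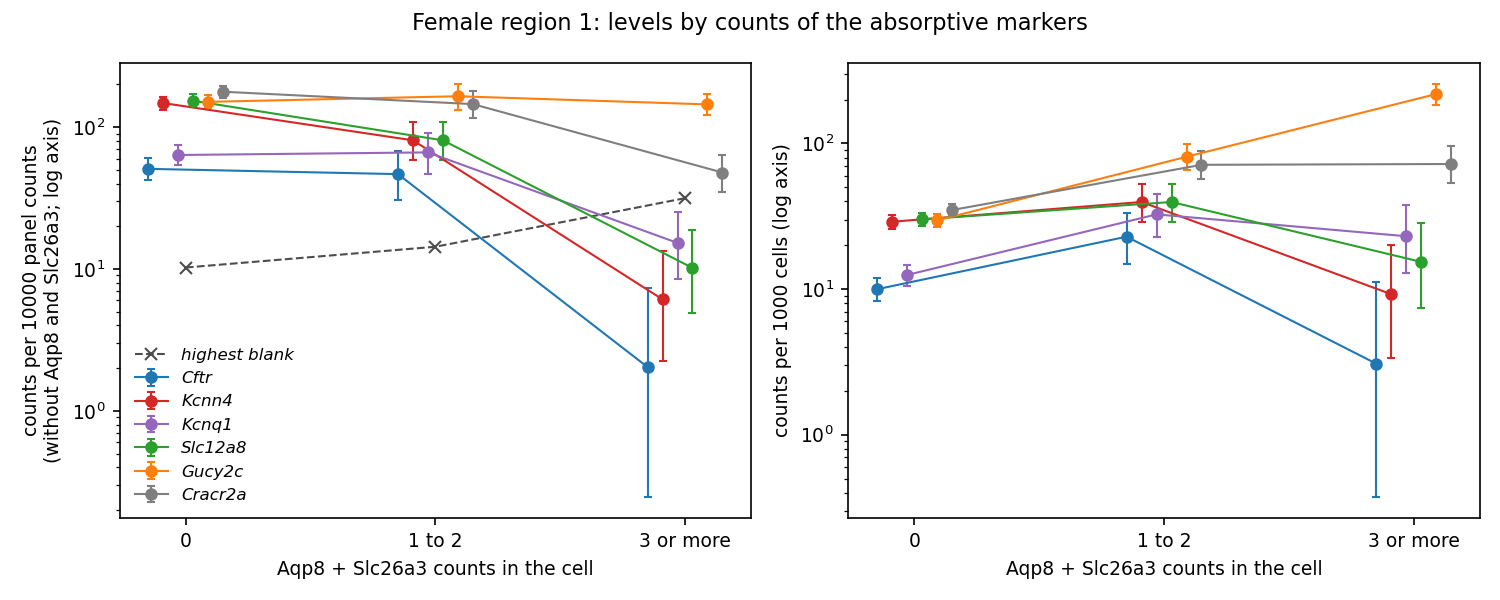
Levels of the 6 genes in female region 1 per 10000 panel counts without Aqp8 and Slc26a3 (left) and per 1000 cells (right), both on log axes, in cells with 0, 1 to 2 and 3 or more counts of Aqp8 and Slc26a3. Bars are exact 95% Poisson intervals, the dashed line is the highest blank, and Gucy2c (144 per 10000) and Cracr2a (47.8) alone lie above it in the group with 3 or more.

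On the same scale, per 10000 panel counts without Aqp8 and Slc26a3, all blanks together stood at 113, 149 and 227 in the 3 groups. The highest single blank stood at 10.2, 14.3 and 31.5. The cells with 3 or more were chosen for counts of Aqp8 and Slc26a3, which this scale leaves out. The scale itself therefore raises the values of that group, and its part in the rise was not separated. The counts of Cftr, Kcnn4, Slc12a8 and Kcnq1 in cells with 3 or more lie under that highest blank of 31 counts, so their levels there could not be told from 0. The ratios were about as low in deeper cells. In the 395 such cells with at least 10 other counts, against 508 cells with 0, the ratios were 0.0253 for Cftr, 0.0500 for Kcnn4, 0.0559 for Slc12a8, 0.218 for Kcnq1, 0.224 for Cracr2a and 1.01 for Gucy2c. The depth of these cells still differed, with a median of 17 counts against 13. Thinned to 10 counts per cell, Gucy2c was found in 13.5% of cells with 3 or more and 11.8% of cells with 0, and Kcnn4 in 0.641% and 10.96%. Without thinning the Gucy2c shares were 24.6% and 15.0%. Cells with at least 2 counts of the muscle gene Des were assumed to lack these genes. In the 68 of them with at least 10 other counts (median 14), the thinned share was 1.34% for Gucy2c and 1.13% for Kcnn4, each from 1 cell. It was 3.38% for Cracr2a and 3.12% for Slc12a8, from 4 cells each, 1.23% for Kcnq1 and 0% for Cftr.

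Gucy2c made up most of the set's counts in the cells richest in absorptive genes. It held 20.3% of the counts of the 6 genes in cells with 0, 28.2% in cells with 1 to 2 and 64.0% in cells with 3 or more. The part of Kcnn4 was 19.9%, 13.8% and 2.70%, that of Slc12a8 20.6%, 13.8% and 4.50%, and that of Cftr 6.83%, 7.98% and 0.901%. Cracr2a held 23.9%, 24.8% and 21.2%, and Kcnq1 8.55%, 11.3% and 6.76%. This measure uses no other gene of the panel, and on it the parts of Cracr2a and Kcnq1 differed less between the groups than those of the other 4 genes.

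**Figure D3:**
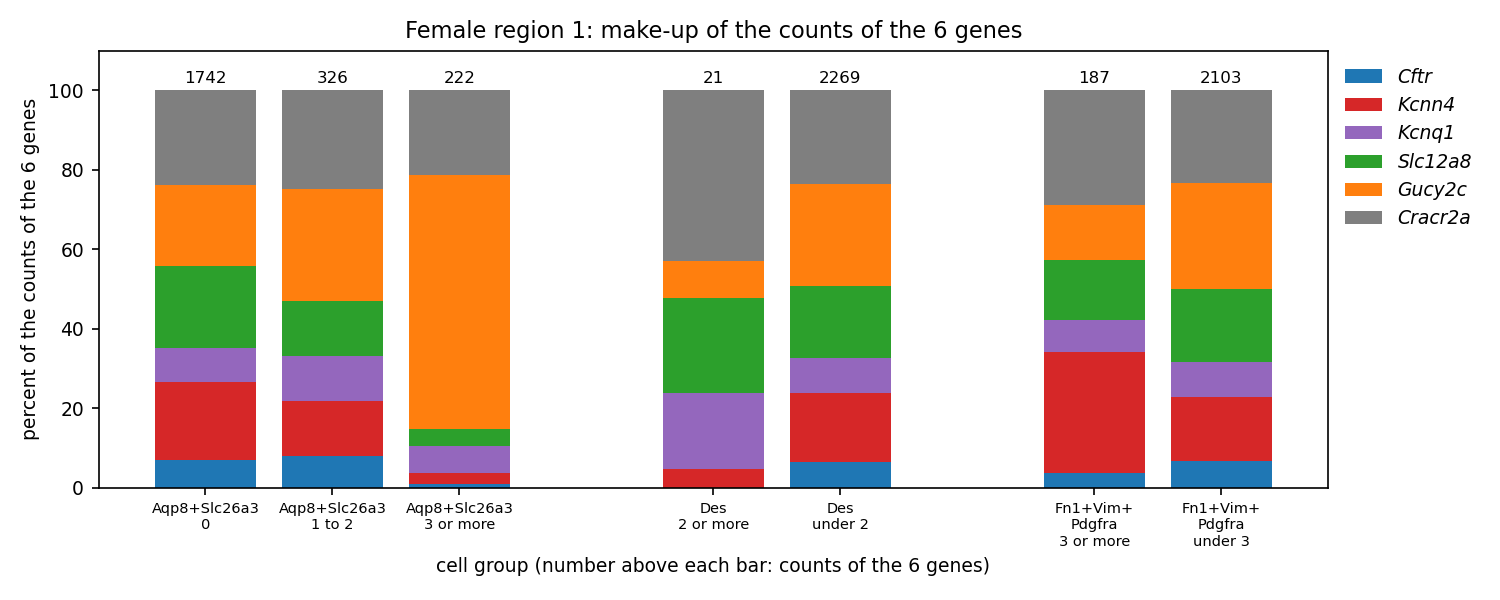
Percent of the counts of the 6 genes that each gene held in female region 1, by cell group, with the number of counts above each bar. Gucy2c holds 64.0% of 222 counts in cells with 3 or more Aqp8 and Slc26a3 counts, and Kcnn4 holds its largest part, 30.5% of 187, in cells with 3 or more Fn1, Vim and Pdgfra counts.

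In Des-rich cells all 6 genes were low, on 0 to 9 counts each. Des codes for desmin, the intermediate filament of muscle, and 264 cells of female region 1 had at least 2 Des counts, against 13443 with fewer. Cftr had 0 counts in the 264 cells and 147 in the others. A count of 0 allows up to 15.5 per 10000 by a floor of 3 counts, by which Cftr was at least 2.24-fold lower than in the other cells (34.6 per 10000). The exact interval of the ratio, which is the wider limit, ran from 0 to 0.556. Kcnn4 had 1 count against 396 (5.15 and 93.2 per 10000; ratio 0.0553, 0.00140 to 0.310), and Gucy2c had 2 against 585 (10.3 and 138 per 10000; ratio 0.0748, 0.00904 to 0.271). Slc12a8 had 5 counts against 409 (ratio 0.267, 0.0864 to 0.629), Cracr2a 9 against 535 (0.368, 0.167 to 0.704) and Kcnq1 4 against 197 (0.444, 0.120 to 1.16). The interval for Kcnq1 includes 1. In the 68 Des-rich cells with at least 10 other counts, Slc12a8 came to 0.596 (0.160 to 1.56), which is not 2-fold. The intervals of Cftr, Kcnn4 and Kcnq1 included 1 there as well, and those of Gucy2c and Cracr2a did not. The highest blank had 8 counts in the 264 cells, and only Cracr2a exceeded it, by 1 count. All 6 genes were at least 2-fold lower and 0 higher on these values, where 27.8% of 90 genes were lower and 22.2% higher, and the median ratio was 0.171 over the 6 and 0.979 over the 90. The male animal and female region 0 had no cell with 2 or more Des counts.

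In cells rich in stromal genes the members had 7 to 57 counts each, all above a highest blank of 6, with Kcnn4 and Cracr2a in the lead. Fn1 (fibronectin), Vim (vimentin) and Pdgfra (a receptor of fibroblasts) summed to 3 or more in 584 cells of female region 1, against 13123 cells with fewer, and levels were taken without these 3 genes. Kcnn4 had 57 counts in the 584 cells and 340 in the others, or 131 and 94.6 per 10000, a ratio of 1.39 (1.03 to 1.84). Cracr2a stood at 124 against 136 per 10000 (ratio 0.912, 0.675 to 1.21), and Kcnq1 at 34.5 against 51.8 (0.667, 0.366 to 1.13). Slc12a8 stood at 64.5 against 107 (0.600, 0.394 to 0.881), Cftr at 16.1 against 38.95 (0.414, 0.163 to 0.875) and Gucy2c at 59.9 against 156 (0.383, 0.248 to 0.568). Thus 2 of the 6 genes were at least 2-fold lower, against 11.4% of 88 genes, and 0 were at least 2-fold higher, against 27.3%. The median ratio was 0.634 over the 6 genes and 1.41 over the 88, so the Kcnn4 ratio lay close to the panel's median.

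The Kcnn4 ratio for stromal genes was not stable. Without the 1 cell with the most Kcnn4 counts it was 1.29 (0.948 to 1.73), and with at least 5 stromal counts as the threshold 1.43 (0.902 to 2.15), both with intervals that include 1. Among cells with at least 10 other counts its ratio was 2.12 (1.16 to 3.66), on 17 counts in 133 cells and 64 in 883. It held 30.5% of the counts of the 6 genes in the stromal group and 16.2% in the other cells. With cells of the absorptive and muscle groups left out the ratio came to 1.11 (0.824 to 1.48), where the interval includes 1. By single genes, Kcnn4 met Vim in 68 cells where depth predicted 36.6, a ratio of 1.86 (1.44 to 2.35), while with Fn1 it was 1.21 (0.993 to 1.46) and with Pdgfra 1.16 (0.769 to 1.67). The ratios of the other 5 members with Vim lay between 0.754 and 0.925, and each of their intervals included 1. Vimentin is made by immune as well as stromal cells. No immune marker was on the panel, and the part of such cells in this result was not tested.

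**Figure D4:**
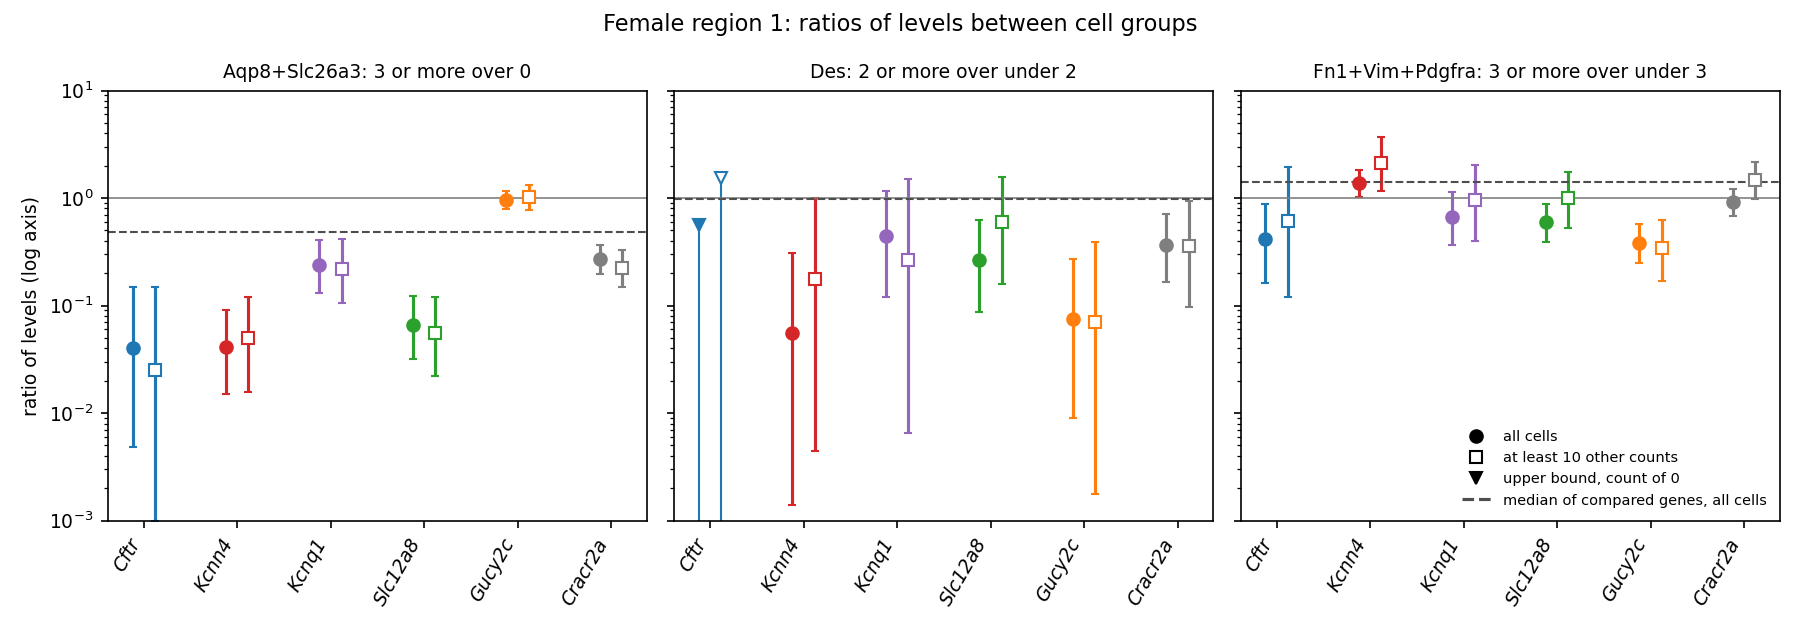
Ratios of levels per 10000 panel counts in female region 1 (log axis) for cells rich in Aqp8 and Slc26a3, in Des, and in Fn1, Vim and Pdgfra, each over the cells named in the panel title, with exact 95% intervals. Filled circles are all cells, open squares cells with at least 10 other counts, triangles the upper bound for Cftr at a count of 0, and the dashed line the median of all compared genes. Gucy2c lies at 0.959 in the first panel, and Kcnn4 at 1.39 in the third.

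The 6 genes were found in the same cells more often than depth predicted. For each pair, the number of cells with both was set against the number expected from the share of cells with either gene among cells of like depth, in female region 1. All 15 pairs had a ratio above 1 with an interval above 1, and 10 of the 15 reached 2, against 9.7% of 5660 pairs of panel genes. The median ratio was 2.26 over the 15 pairs and 1.08 over the 5660, and intervals treat cells as independent draws. The set was chosen with earlier results of these data known, so its excess over the panel is not independent support for the set.

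Among the 5 highest pairs 3 held Cftr. Cftr and Kcnq1 met in 17 cells where 3.73 were predicted, a ratio of 4.56 (2.65 to 7.29), which is 12.1% of the Cftr cells and 9.19% of the Kcnq1 cells. Cftr and Slc12a8 met in 21 cells where 6.52 were predicted (ratio 3.22, 1.99 to 4.92), and Cftr and Cracr2a in 26 where 8.62 were (3.02, 1.97 to 4.42). Kcnq1 and Slc12a8 reached 3.21 (28 cells against 8.73; 2.13 to 4.64), and Slc12a8 and Cracr2a 3.20 (65 against 20.3; 2.47 to 4.08). The lowest pair was Kcnn4 with Gucy2c, at 1.69 (40 cells against 23.7; 1.21 to 2.30). Blanks gave no such excess: with any blank the ratios of the 6 genes lay between 0.746 and 0.848, with intervals that include 1. Blanks are not a neutral control here, as they stood at 227 per 10000 in cells with 3 or more Aqp8 and Slc26a3 counts and 113 in cells with 0. Most members were low in the former cells, so differences between cell groups also enter these ratios.

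With the absorptive genes the members divided as they did in the grouped cells. Ratios with Aqp8 were 0.324 for Slc12a8 (19 cells where 58.6 were predicted; 0.195 to 0.506), 0.362 for Kcnn4 (20 against 55.2; 0.221 to 0.560), 0.439 for Cftr (0.219 to 0.786), 0.662 for Cracr2a (0.502 to 0.858), 0.666 for Kcnq1 (0.435 to 0.976) and 1.12 for Gucy2c (147 cells against 131; 0.9503 to 1.32). With Slc26a3 the order was nearly the same, at 0.518 for Kcnn4, 0.574 for Slc12a8, 0.680 for Cftr, 0.869 for Cracr2a, 0.922 for Kcnq1 and 1.18 for Gucy2c (1.01 to 1.37). The same cells and counts underlie both measures, so they are not separate evidence. With Ezr the ratio was highest for Gucy2c, at 1.24 (1.08 to 1.43), and lowest for Cftr, at 0.855 (0.564 to 1.24). With Shroom3 all members lay between 1.04 (Kcnn4) and 1.45 (Gucy2c and Slc12a8).

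**Figure D5:**
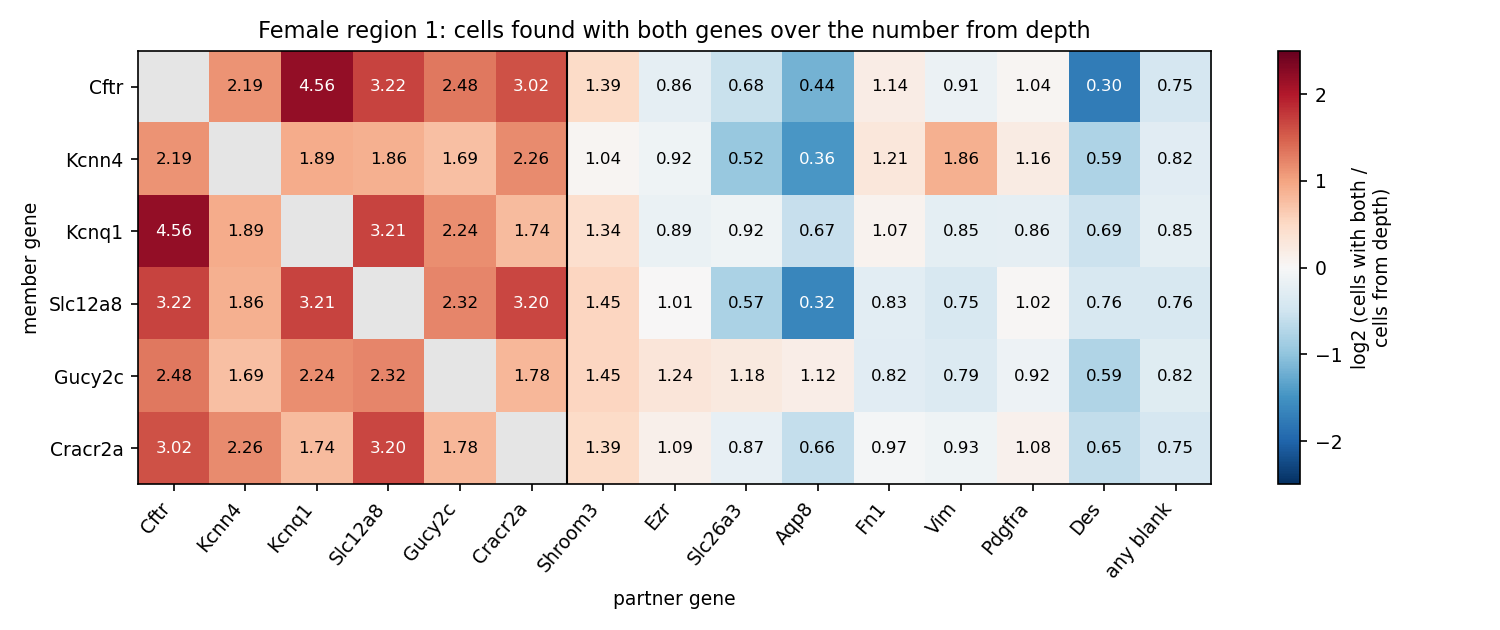
Cells of female region 1 with a count of both genes over the number predicted from depth, for each member (rows) with the other members, 8 marker genes and any blank (columns). Colour is the log2 of the ratio printed in each cell. Ratios among members run from 1.69 to 4.56, and those with Aqp8 from 0.324 to 1.12.

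Among the other panel genes the ones found most with the members were largely shared. Akap9 codes for a scaffold that holds protein kinase A and binds KCNQ1 in the human heart. Akap9 was among the 3 highest partners of Cftr (2.54, 1.69 to 3.67), Kcnn4 (1.97), Slc12a8 (2.20), Gucy2c (1.56) and Cracr2a (2.22, 1.77 to 2.76). It was not among those of Kcnq1. Sema5a, a semaphorin gene, was so for Kcnq1 (15 cells against 3.58; 4.19, 2.34 to 6.91), Slc12a8 (2.76), Kcnn4 (2.36) and Gucy2c (1.64, 0.987 to 2.56). The receptor phosphatase gene Ptprk stood at 2.58 with Cftr and 1.90 with Cracr2a, and the phospholipase gene Plce1 at 2.34 with Cftr and 2.19 with Kcnq1. Aldh1b1, a mitochondrial aldehyde dehydrogenase, met Kcnq1 at 2.82 (37 cells against 13.1; 1.98 to 3.88). Further partners under the same rule were Sltm with Kcnn4 (2.11), the transcription factor gene Nfia with Slc12a8 (2.29), the nuclear receptor gene Ppard with Gucy2c (1.57) and the collagen gene Col8a1 with Cracr2a (2.03).

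The lowest partners were grouping genes or genes that were higher in cells rich in stromal genes, and their cells were not typed. In stromal-gene cells over the others, Slit3 came to 3.90, Col12a1 to 2.94, Ano6 to 2.39, Piezo2 to 2.19 and Slc8a1 to 1.80. The median over the 88 compared genes was 1.41, and Nfia, a high partner of Slc12a8, came to 2.33. Besides Aqp8, which was among the lowest for 4 members, they were Des with Cftr (4 cells where 13.5 were predicted; 0.297, 0.0810 to 0.761), Slc26a3 with Kcnn4 (0.518), the collagen gene Col12a1 with Kcnq1 (0.464) and the guidance factor gene Slit3 with Slc12a8 (0.502) and Cracr2a (0.563). Gucy2c met least with the scramblase and channel gene Ano6 (5 cells against 12.3; 0.408, 0.132 to 0.952) and with Piezo2 (6 against 14.5; 0.412, 0.151 to 0.898). Cracr2a met least with the sodium and calcium exchanger gene Slc8a1 (4 against 11.7; 0.343, 0.0934 to 0.878). The intervals of Col12a1 and Slit3 include 1.

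A small group of cells carried several members at once. In female region 1, 12135 cells had none of the 6 genes, 1272 had 1 of them, 216 had 2, 73 had 3, 9 had 4, 2 had 5 and 0 had all 6. In female region 0 and the male regions no cell had 3 or more. Of the 84 cells with 3 or more members, 70 had no count of Aqp8 or Slc26a3, 12 had 1 to 2 and 2 had 3 or more. Depth alone raises such numbers, so the 58 of them with at least 10 panel counts were set beside the other 1198 cells of that depth (median 15.5 against 15 counts). Cells with 3 or more Aqp8 and Slc26a3 counts made up 3.45% of the 58 and 45.1% of the 1198. Cells rich in stromal genes made up 12.1% against 24.9%, and Des-rich cells 0% (0 of 58) against 9.43%. A count of Ezr was found in 36.2% of the 58 and 58.2% of the 1198. The 58 cells hold at least 3 counts of members by their choice, which leaves fewer counts for other genes, and these shares are a description of 1 section. The limit of 10 panel counts also includes the marker genes, so some cells passed it only through the markers then scored. Of the 1198, 540 had 3 or more Aqp8 and Slc26a3 counts, whereas 395 cells of that group had at least 10 other counts. The shares were not recomputed without the marker genes.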

How the data were processed

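Per the labels, transcripts of a MERSCOPE panel were imaged in frozen sections 10 µm thick, and the deposited tables hold counts of each gene and blank barcode in each segmented cell, 1 table per region. The submitters' processing notes name Seurat; for its role and version, the decoding and the segmentation, the detail is not given in the sources used here. The files name no genome build. The 6 members, the marker and pathway lists and the groupings were chosen with earlier results of these data known.

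Counts were summed per region or cell group and divided by the panel counts of the same cells, without the genes that define the group. Levels have exact Poisson intervals, shares exact binomial ones, and ratios exact conditional ones, all at 95%. They cover counting error only. Panel counts per region ran between 582 and 45942. Ratios are given for genes with at least 50 counts over both sides, and 2-fold is the size called higher or lower. Co-detection compares cells with both genes with the sum, over bins of the other panel counts (1 to 2, 3 to 5, 6 to 9, 10 to 14, 15 to 24, 25 or more), of the product of both shares. Named genes are the members, the grouping genes, list genes on the panel and, per member, up to 3 other genes with the highest co-detection ratio (at least 10 cells found and 100 counts) and up to 2 with the lowest (at least 10 cells predicted); Ezr and Shroom3 levels by cell group, and the ratios with Shroom3, were chosen after their values were seen. The planned test over animals needed 10 cells per group in each animal and was not run, since the male had 0 cells in each of the 3 marker-rich groups (female 651, 264 and 584). Doublets and mixing of neighbours by segmentation were not removed, and cells of more than 1 group were left out as an alternative. Scripts were tested on simulated counts. Software was Python 3.11.15, numpy 2.4.6, pandas 2.3.3, scipy 1.17.1 and matplotlib 3.10.9.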

Additional observations from a re-analysis of the deposited data

How the results depend on the processing

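Of 90 recomputed counts of members, 70 stayed within 1.5 times the reported count. This share overstates stability, because some of the counts could hardly move. All members passed the filter of 50 counts, so the filter of 10 left them unchanged, and others were counts of 0 that stayed at 0. Counted per cell, 2 members were at least 2-fold higher and 2 lower in cells rich in Aqp8 and Slc26a3, with Kcnq1 at 1.85 and Cracr2a at 2.07. Of the 85 genes compared, 58 were higher and 8 lower on that scale. In Des-rich cells 3 were lower and 0 higher per cell, with Kcnq1 at 1.03, where 13 of 90 genes were lower and 48 higher. In cells rich in stromal genes 2 were higher and 0 lower per cell, with Cftr at 1.12 and Gucy2c at 1.04. There 66 of 88 genes were higher and 1 lower. All 6 members were higher per cell in female region 1 than in region 0, as were 79 of 101 genes. These groups differ in counts per cell. As a share of the counts of the 6 genes, a scale chosen after seeing the data, 1 member was higher and 3 were lower in absorptive-marker cells. Divided by the same counts, 38 of 85 genes were higher there and 23 lower. In Des-rich cells, on 21 counts, 1 member was higher and 3 lower, with Kcnq1 at 2.19, Slc12a8 at 1.32 and Cracr2a at 1.82. There 67 of 90 genes were higher and 8 lower. In stromal-gene cells 0 members were lower and 0 higher, where 3 of 88 genes were lower and 43 higher. In stromal-gene cells with at least 10 other counts 1 member was higher and 1 lower, where 16 of 47 genes were higher and 9 lower. Thinned to 10 counts 1 member was lower and 0 higher, where 17 of 88 genes were lower and 35 higher. Among cells with an Ezr count, also chosen after seeing the data, 1 member was higher and 0 lower, with Cftr at 1.97. There 8 of 40 genes were higher and 3 lower. The cause was not tested. Against the second highest blank, or the mean blank plus 3 SD, 2 members lay above background in male region 1 and 1 in female region 0. The median panel gene had 2 counts in male region 1, above the second highest blank of 1. In female region 0 it had 8.5, under the second highest blank of 18. The number of member pairs at 2 or more lay between 9 and 12 under narrower bins, deeper cells only, and without Des-rich, stromal-gene or absorptive-marker cells. Not the same pairs reached 2: without absorptive-marker cells Cftr with Kcnn4 came to 1.38 (9 cells against 6.53) and Kcnn4 with Cracr2a to 1.84. Kcnq1 with Cracr2a, under 2 before, came to 1.31. No intervals were computed for these recomputed pairs. Of 204 recomputed ratios of single genes 25 lay on the other side of 1, and the 9 at least 2-fold before are those named above. Of the other 16, 5 had an interval wholly beyond 1: per cell Gucy2c (7.38) in absorptive-marker cells, Slc12a8 (1.63) and Cracr2a (2.48) in stromal-gene cells and Kcnq1 (6.13) for the female over the male, and as a share Gucy2c (3.16) in absorptive-marker cells. The edgeR test, and with it DESeq2, TMM factors, no count filter, no animal block and leaving out an animal, was not run. In male region 1 (582 panel counts, highest blank 2) and female region 0 (4288 and 33) 0 members lay above the highest blank.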
